A study of Mus musculus with 30 samples.

Results

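Semaphorins are secreted or membrane-bound proteins that guide growing axons and also act between immune cells, and plexins are the receptors that most of them bind, with neuropilins as co-receptors for the secreted ones. Plexin signaling acts on small GTPases and on the cytoskeleton, and thereby on cell shape, adhesion and migration. In myeloid cells, the transmembrane semaphorin *Sema6d* binds plexin-A1 (*Plxna1*), and a complex of plexin-A1 with *Trem2* and *Tyrobp* has been described. The set examined here holds 10 of the 47643 genes of the deposited table: *Sema6d*, the transmembrane semaphorins *Sema4a*, *Sema4b*, *Sema4c* and *Sema4d*, the plexins *Plxna1*, *Plxnb2*, *Plxnd1* and *Plxnc1*, and the neuropilin *Nrp1*. *Sema6d* was chosen by its lower level in mice carrying Cre, so its difference from WT mice is given as a description with no test, and the other 9 were listed for comparison with it. All 10 passed the filter of a mean FPKM (fragments per length of transcript, relative to all mapped fragments of the library) of at least 0.1.

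RNA was measured in microglia sorted as CD11b+ CD45med cells from the brains of 3-month-old mice. Homo mice were Bin1 flox/flox::Cx3Cr1-Cre+ (5 males and 5 females), Het mice were Bin1 wt/flox::Cx3Cr1-Cre+ (6 males and 5 females), and mice labelled WT (5 males and 4 females) carried 1 floxed *Bin1* copy without Cre according to a figure legend of the study. Cre was knocked into the *Cx3cr1* locus, whose product is the fractalkine receptor of microglia. By the labels and the genotypes given in the study, the altered *Cx3cr1* locus, Cre and deletion of at least 1 *Bin1* copy were thus all present in each of the 21 Cre-positive mice. Their parts in a difference from WT cannot be told apart. All contrasts with WT within a sex share the same WT libraries. The protocol filed with the samples describes instead microglia cultured from newborn pups. The description in the methods was followed, and which of them holds was not tested.

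*Bin1* ranged from 230.3 to 289.5 FPKM in the 9 WT libraries and from 39.5 to 55.6 FPKM in the 10 Homo libraries. Of the 11 Het libraries, 9 lay between 117.3 and 164.3 FPKM, whereas Het-M-0199 (51.8 FPKM) and Het-F-0206 (42.7 FPKM) lay in the range of Homo. The *Bin1* level of these libraries thus goes against their Het label, and whether the label is right was not tested. *Cx3cr1* was at 13.9 FPKM in Het-F-0206, at 610 to 1243 FPKM in the other Cre-positive libraries and at 1829 to 2344 FPKM in WT. Relative depth, set to 1 for the median library, ranged from 0.669 to 1.41, and the number of reads is unknown. Its group medians were higher in WT (1.17 in males and 1.12 in females) than in Cre-positive mice. There they were 0.914 in male Het, 0.920 in male Homo, 1.01 in female Het and 0.946 in female Homo. The part of depth in differences from WT was not tested. Of the markers of microglia, *P2ry12* (3509 to 5359 FPKM) and *Tmem119* (1424 to 2581 FPKM) were high in all 30 libraries, whereas the summed level of 5 lymphocyte markers was at most 0.67 FPKM. Of 5 endothelial markers, *Cldn5* was at 0 in 27 libraries, but *Pecam1* (6.64 to 14.9 FPKM) and *Cdh5* (0.0646 to 0.523 FPKM) were at 0 in none, and their sum was 6.96 to 15.4 FPKM. Mouse numbers below 150 (early) were borne by 3 of 5 male Homo, 2 of 6 male Het and 1 of 4 female WT mice and by no mouse of the other groups.

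*Sema6d* (ENSMUSG00000027200, GRCm38 chromosome 2, 124089969 to 124667770, plus strand) was lower in the Cre-positive mice of both sexes and of both genotypes. The 5 male WT libraries gave 2.29, 3.87, 3.99, 3.99 and 6.18 FPKM, and the 4 female WT libraries gave 4.43, 4.92, 4.98 and 6.18 FPKM. The 6 male Het libraries ranged from 2.09 to 2.74 FPKM with a median of 2.34 FPKM. The male Homo libraries gave 1.94, 2.06, 2.59, 3.00 and 3.31 FPKM. Among females, Het libraries gave 1.52, 2.24, 2.32, 2.48 and 3.79 FPKM, and Homo libraries gave 2.21, 2.87, 3.14, 3.16 and 3.64 FPKM. No Cre-positive library exceeded 3.79 FPKM, and 8 of the 9 WT libraries were above that level. The exception was WT-M-0258 (2.29 FPKM), whose *Bin1* (289.5 FPKM) and *Cx3cr1* (1829 FPKM) lay with WT and whose relative depth was 0.993. The lowest level of all was that of Het-F-0206 (1.52 FPKM). Within females neither genotype overlapped with WT, and this was also the case for 2.31% of all tested genes in Homo and 2.21% in Het. In males both genotypes overlapped with WT because of WT-M-0258, and 3.94% and 0.84% of the tested genes did not overlap there.

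**Figure D1:**
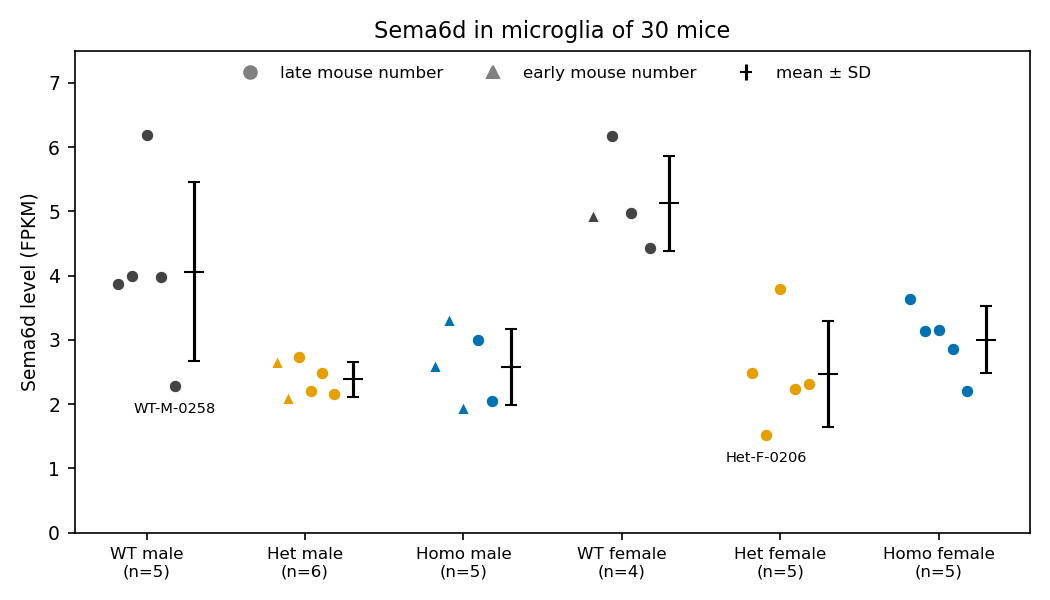
*Sema6d* level (FPKM, y axis) in each library of the 6 groups (x axis). Circles are mice with late numbers and triangles mice with early numbers, and bars are mean ± SD. All 21 Cre-positive libraries lie at or below 3.79 FPKM, and only WT-M-0258 of the WT libraries lies among them.

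In order of mean level, *Sema6d* averaged 5.13 ± 0.741 FPKM (n = 4, SD) in female WT, 4.06 ± 1.39 FPKM (n = 5) in male WT, 3.00 ± 0.523 FPKM (n = 5) in female Homo, 2.58 ± 0.590 FPKM (n = 5) in male Homo, 2.47 ± 0.827 FPKM (n = 5) in female Het and 2.39 ± 0.275 FPKM (n = 6) in male Het. Each pair of neighbors in this order differed by less than the larger of their SDs. On the scale of log2(scaled FPKM + 0.1), the mean of the Cre-positive groups was 0.82 below that of WT (−0.82, SE 0.14, 95% interval −1.11 to −0.53), which corresponds to 0.567 of the WT level. Because *Sema6d* was chosen by this contrast, the interval describes the uncertainty of the estimate only and cannot serve as a test. The difference was −0.68 (SE 0.22) for male Homo, −0.76 (SE 0.21) for male Het, −0.76 (SE 0.24) for female Homo and −1.08 (SE 0.24) for female Het. Without Het-F-0206 and Het-M-0199 the Cre-positive difference was −0.78, without WT-M-0258 it was −0.92, and among late-numbered mice alone it was −0.80.

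Summed levels of markers of other cells varied between libraries and groups. The summed level of 5 markers of border macrophages (*Mrc1*, *Lyve1*, *Cd163*, *Pf4* and *F13a1*, none of which was at 0 in any library) was 12.5 to 38.8 FPKM in male WT, 9.60 to 16.3 FPKM in male Het, 9.68 to 22.8 FPKM in male Homo, 13.4 to 25.1 FPKM in female WT, 9.41 to 27.6 FPKM in female Het and 8.92 to 29.3 FPKM in female Homo. Of 7 neutrophil markers, each of which was at 0 in at least 5 libraries, the sum was 43.9 to 349.2 FPKM in male WT and 0 to 189.5 FPKM in male Het. It was 0 to 80.8 FPKM in male Homo, 6.80 to 158.5 FPKM in female WT, 0 to 88.2 FPKM in female Het and 0.219 to 72.05 FPKM in female Homo. The sum of 4 choroid plexus markers was 0.264 to 271.1 FPKM in male WT (median 74.3 FPKM) and 0.602 to 124.4 FPKM in female WT (median 12.4 FPKM). It was at most 23.6 FPKM in Cre-positive mice, with medians of 6.21 FPKM in male Het, 11.7 FPKM in male Homo, 0.854 FPKM in female Het and 1.11 FPKM in female Homo. *Ttr*, its main gene, was at 0 in 2 libraries. The sum of 7 markers of the oligodendrocyte lineage was 60.6 to 80.8 FPKM in WT and 62.5 to 153.2 FPKM in Cre-positive mice, with *Mog* at 0 in 5 libraries. The sum of 5 neuron markers had medians of 3.71, 6.53 and 5.96 FPKM in male WT, Het and Homo and of 3.39, 5.30 and 4.57 FPKM in female WT, Het and Homo, within a range of 2.13 to 18.8 FPKM over all libraries. The sum of 5 astrocyte markers was 1.59 to 7.13 FPKM in WT and reached 27.9 FPKM in male Het, 16.8 FPKM in male Homo and 13.2 FPKM in female Homo. The part of these cells in the *Sema6d* difference was not tested. In bulk RNA, fewer cells of a type and less RNA per cell cannot be told apart.

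*Cx3cr1*, the locus that carries Cre, is plotted beside *Sema6d* for each library. Within the Cre-positive libraries other than Het-F-0206, *Cx3cr1* and *Sema6d* reached at most 1243 and 3.79 FPKM, and within WT *Cx3cr1* was at least 1829 FPKM.

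**Figure D2:**
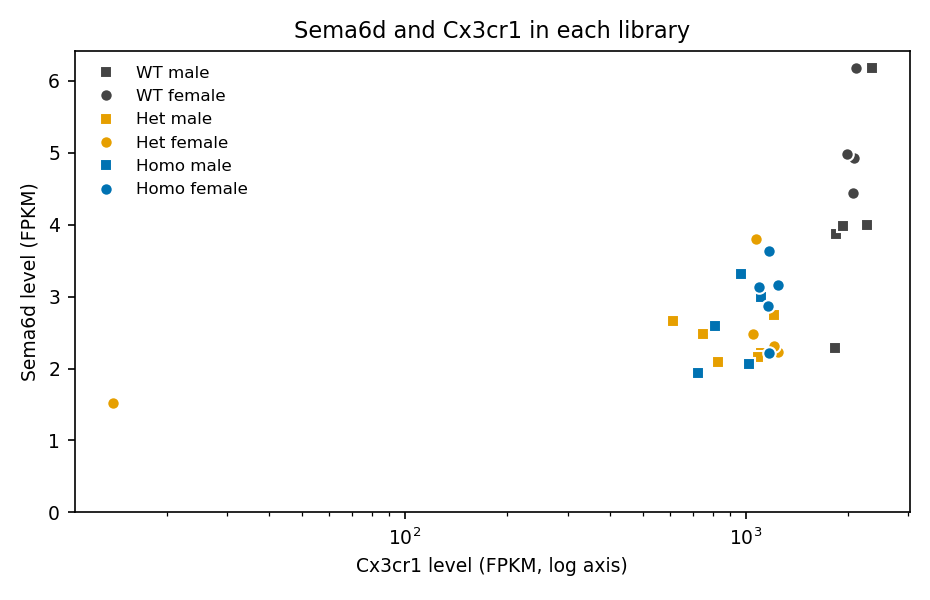
*Sema6d* level (FPKM, y axis) against *Cx3cr1* level (FPKM, log x axis), with 1 point per library colored by genotype (squares, male and circles, female). WT libraries lie to the right (1829 to 2344 FPKM), Het-F-0206 lies apart at 13.9 and 1.52 FPKM, and the other Cre-positive libraries lie between.

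By their labels and the genotypes given in the study, Homo and Het mice both carry Cre and differ in the second copy of *Bin1*. *Sema6d* was chosen as lower in the Cre-positive groups, which hold both genotypes, and this favors a small difference between Homo and Het. The test of *Sema6d* in this contrast thus cannot show that Homo and Het levels are alike. The libraries labelled Het-M-0199 and Het-F-0206, with *Bin1* in the Homo range, were in the Het groups, and early numbers were borne by 3 of 5 Homo and 2 of 6 Het males. *Sema6d* did not pass the test in either sex (limma, Benjamini-Hochberg adjusted over all 16897 genes). Homo males differed from Het males by 0.08 (SE 0.21, 95% interval −0.36 to 0.51, adjusted p = 0.998). Homo females differed from Het females by 0.31 (SE 0.22, 95% interval −0.14 to 0.77, adjusted p = 1), and by 0.16 without Het-F-0206 and Het-M-0199. These intervals include a Homo level of 0.780 to 1.42 times that of Het in males and of 0.908 to 1.70 times in females. None of the 10 genes passed the threshold in this contrast in either sex, and none had an unadjusted p below 0.05. Among all genes tested, 0 passed in males and 2 in females, that is 0% and 0.0118%. An unadjusted p below 0.05 was reached by 651 of all genes (3.85%) in males and by 348 (2.06%) in females.

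The difference of *Sema6d* between Cre-positive and WT mice was also compared between the sexes. *Sema6d* was chosen as lower in the Cre-positive groups, which hold both sexes, and this favors a small difference between the sexes. Such a comparison thus cannot show that the sexes are alike for *Sema6d*. The interaction was 0.08 (SE 0.32, 95% interval −0.58 to 0.75, adjusted p = 0.945 by limma) for Homo and 0.32 (SE 0.32, 95% interval −0.33 to 0.97, adjusted p = 0.865) for Het. In WT mice alone, *Sema6d* was 0.39 lower in males on the log2 scale (−0.39, SE 0.24, adjusted p = 1), a difference that did not pass the test. Of the 10 genes, 0 passed in the 2 interactions and in the WT sexes, beside 0%, 0% and 0.0473% of all genes. An unadjusted p below 0.05 was reached by 0 of the 10 in the interactions, beside 1569 (9.29%) of all genes for Homo and 766 (4.53%) for Het.

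The other semaphorins of the set belong to a transmembrane class that acts on plexins of the B type and on other immune receptors. *Sema4d* (CD100), which binds plexin-B1, plexin-B2 and, in lymphocytes, CD72, was the most abundant of them with a mean of 114.8 FPKM over all 30 libraries. *Sema4c*, a ligand of plexin-B2, had a mean of 26.0 FPKM. *Sema4b* had 6.32 FPKM, and *Sema4a*, which costimulates T cells, had 3.63 FPKM. *Sema6d* itself had a mean of 3.18 FPKM and was below *Sema4a* in 17 of 30 libraries. The order of their group means followed genotype. *Sema6d* was above *Sema4a* in male WT (4.06 and 3.74 FPKM) and female WT (5.13 and 4.32 FPKM). It was below *Sema4a* in male Het (2.39 and 3.24 FPKM), male Homo (2.58 and 3.36 FPKM), female Het (2.47 and 3.86 FPKM) and female Homo (3.00 and 3.48 FPKM). Levels are compared per length of transcript, as FPKM give them.

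None of the 4 passed the test between Cre-positive and WT mice. *Sema4a* had the largest difference (−0.24, SE 0.13, 95% interval −0.51 to 0.03, adjusted p = 0.403 by limma). Its libraries ranged from 2.61 to 5.35 FPKM in WT and from 2.20 to 5.53 FPKM in Cre-positive mice. *Sema4b* differed by −0.05 (SE 0.11, adjusted p = 0.844) and had its highest level of all libraries in WT-M-0258 (9.93 FPKM), without which the difference was 0.01. *Sema4c* differed by 0.12 (SE 0.08, 95% interval −0.04 to 0.28, adjusted p = 0.488). *Sema4d* differed by −0.03 (SE 0.10, 95% interval −0.23 to 0.18, adjusted p = 0.922), and its lowest WT level was again that of WT-M-0258 (80.4 FPKM).

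Of *Sema4c*, the female WT libraries gave 18.5, 22.3, 26.2 and 26.8 FPKM, and female Homo libraries gave 25.4, 26.8, 28.3, 29.4 and 30.6 FPKM. These groups overlapped, and the difference of 0.27 (SE 0.13) had an unadjusted p of 0.0477 and an adjusted p of 1 by limma.

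**Figure D3:**
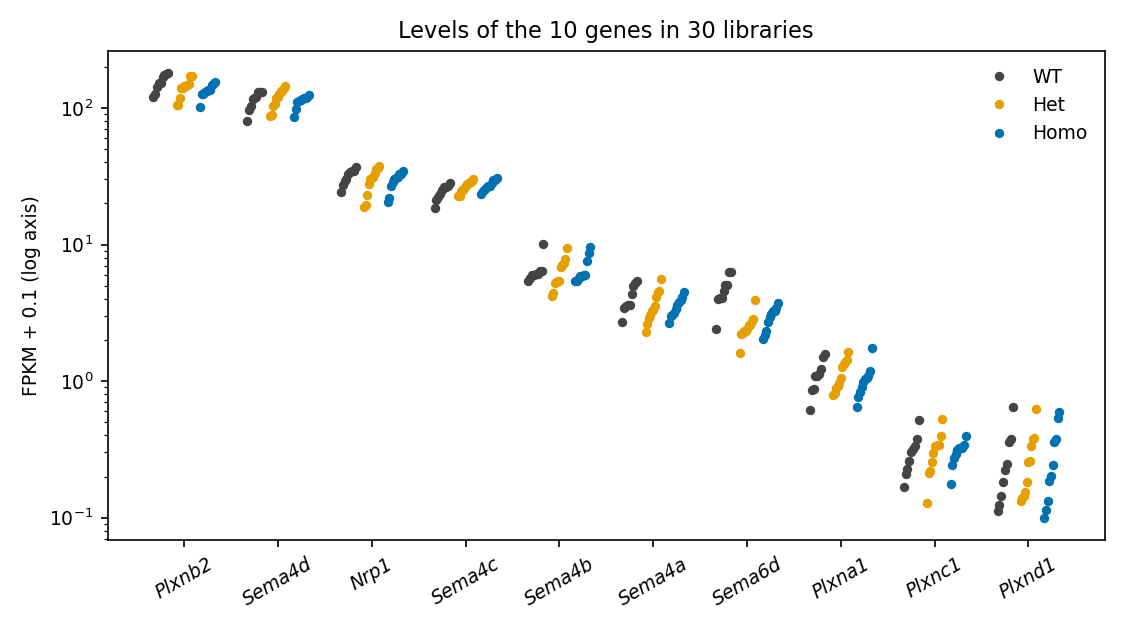
Level of each of the 10 genes (FPKM + 0.1, log y axis) in WT, Het and Homo libraries of both sexes, with 1 point per library and genes in order of mean level. *Plxnb2* and *Sema4d* lie near 100 FPKM, *Plxnc1* and *Plxnd1* below 1 FPKM, and *Sema6d* is lower in Het and Homo than in all WT libraries but 1.

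Among the receptors, *Plxnb2*, which binds *Sema4c* and *Sema4d*, had the highest level of the whole set (142.5 FPKM) and was above *Sema4d* in 30 of 30 libraries. *Plxna1*, a receptor of *Sema6d* but not taken here as its only one, had a mean of 0.990 FPKM. It was below *Sema6d* in 30 of 30 libraries. *Plxnc1*, the receptor of *Sema7a*, and *Plxnd1*, the receptor of *Sema3e*, had means of 0.203 and 0.174 FPKM, and their order changed between libraries. *Nrp1*, the co-receptor of secreted semaphorins and of VEGF, had a mean of 29.9 FPKM and was above *Sema4c* in 24 of 30 libraries.

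*Plxna1* did not pass the test between Cre-positive and WT mice (−0.09, SE 0.16, 95% interval −0.41 to 0.23, adjusted p = 0.822 by limma). Its libraries ranged from 0.513 to 1.48 FPKM in WT and from 0.546 to 1.65 FPKM in Cre-positive mice, and the groups overlapped throughout. *Plxnd1* (0.07, SE 0.33, adjusted p = 0.940) and *Plxnc1* (0.04, SE 0.21, adjusted p = 0.951) had the widest intervals, from −0.61 to 0.76 and from −0.38 to 0.46, at levels of 0 to 0.543 and 0.0271 to 0.428 FPKM. *Nrp1* differed by −0.16 (SE 0.12, 95% interval −0.41 to 0.09, adjusted p = 0.548).

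*Plxnb2* differed by −0.21 between Cre-positive and WT mice (SE 0.10, 95% interval −0.40 to −0.01), with an unadjusted p of 0.0404 and an adjusted p of 0.320 by limma. Its male WT libraries gave 119.4, 152.3, 174.5, 177.8 and 180.3 FPKM, and male Homo libraries gave 102.2, 125.7, 126.7, 133.8 and 134.3 FPKM. Male Homo libraries thus lay below 4 of the 5 male WT libraries and overlapped with WT-M-0202. The male Homo difference was −0.44 (SE 0.15, adjusted p = 0.0908) and that of male Het −0.38 (SE 0.15, adjusted p = 0.280), whereas values in females were −0.03 and 0.03. Without WT-M-0202, the male Homo difference was −0.56 with an adjusted p of 0.0318, and leaving out any other library gave no pass. It was smaller without Homo-M-0109 (−0.35, adjusted p = 0.262), WT-M-0178 (−0.39, 0.189) or WT-M-0177 (−0.40, 0.194). The difference between the sexes itself was −0.41 for both genotypes and did not pass the test (adjusted p = 0.569 and 0.860). Among late-numbered mice alone, which hold only 2 male Homo libraries, the male Homo difference of *Plxnb2* was −0.29 (adjusted p = 0.771).

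In all, 0 of the 9 genes other than *Sema6d* passed the threshold between Cre-positive and WT mice, and 1 (*Plxnb2*) had an unadjusted p below 0.05. Of all 16897 genes tested, 1.44% passed and 14.5% had an unadjusted p below 0.05. Their median difference was −0.05 (range −0.24 to 0.12), beside a median of 0.01 over all genes. Within sexes, too, 0 of the 9 passed in male Homo, male Het, female Homo and female Het mice, where 2.82%, 0.172%, 0.071% and 0.136% of all genes did. By unadjusted p below 0.05 the counts were 1, 2, 1 and 0 of 9, beside 22.5%, 14.2%, 3.49% and 3.95% of all genes.

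**Figure D4:**
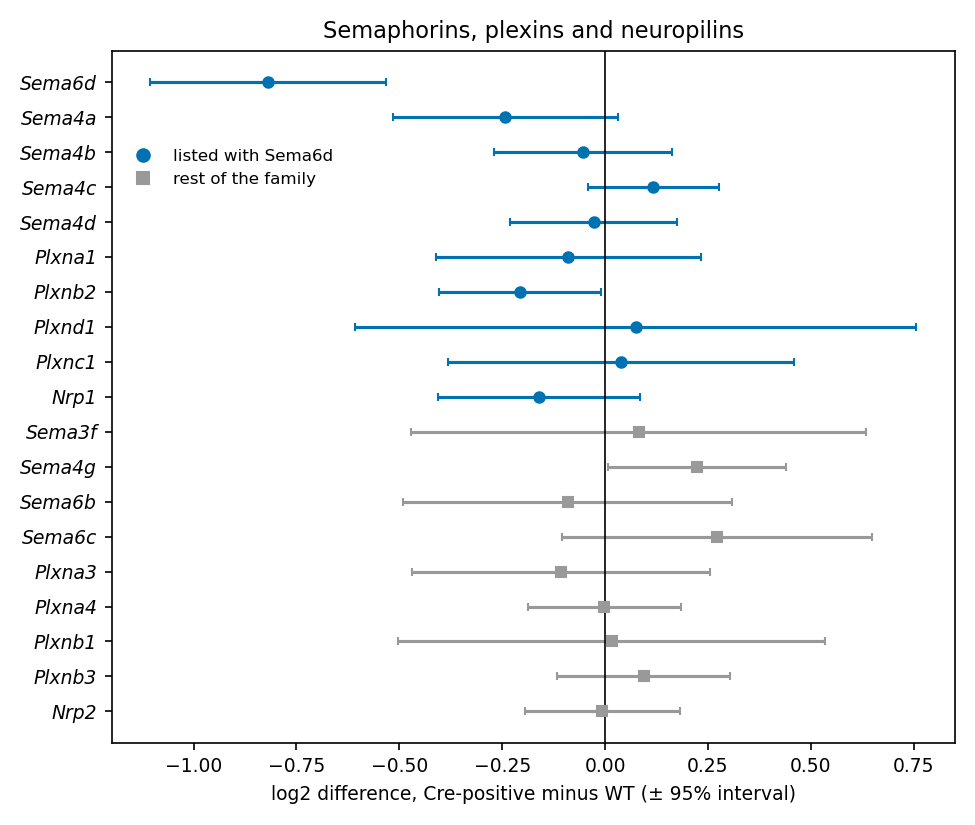
Difference between Cre-positive and WT mice (log2 scale, x axis) with its 95% interval for the 10 genes (circles) and for the 9 tested genes of the rest of the family (squares). *Sema6d*, which was chosen by this contrast so that its interval cannot serve as a test, lies at −0.82. The other 18 genes lie between −0.24 and 0.27.

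The rest of the family comprises 21 semaphorins, plexins and neuropilins, of which 9 were above the filter. The 5 most abundant were *Plxna4* (8.41 FPKM), *Plxnb3* (8.38 FPKM), the neuropilin *Nrp2* (7.02 FPKM), *Sema4g* (4.54 FPKM) and *Plxna3* (2.16 FPKM). *Plxna4* and *Plxna3*, both of the A type, were thus more abundant than *Plxna1*. None of the 9 passed the threshold between Cre-positive and WT mice, with a median difference of 0.02 and a range of −0.11 to 0.27. *Sema4g* was 0.22 higher with an unadjusted p of 0.0437 and an adjusted p of 0.328 by limma, and *Plxna4* differed by −0.0021 (95% interval −0.19 to 0.18). The other 12 were below the filter.

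Of 38 listed partners and effectors of plexins, 31 were tested, and 0 passed between Cre-positive and WT mice, whereas 6 had an unadjusted p below 0.05, beside 14.5% of all genes. Their median difference was −0.02. *Tyrobp* (2011 FPKM) and *Trem2* (1223 FPKM), the partners of plexin-A1 in its myeloid complex, were the most abundant. *Trem2* differed by 0.11 (SE 0.08, adjusted p = 0.548 by limma) and *Tyrobp* by 0.08 (SE 0.10, adjusted p = 0.744). *Plxdc2* (385.6 FPKM), *Rac1* (357.8 FPKM) and *Rhoa* (163.8 FPKM) followed. *Rac1* and *Rhoa* encode small GTPases, whereas whether the listed *Plxdc2* acts with plexins was not tested.

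Within a sex, 1 of the 31 (*Gipc1*) passed in male Homo mice, where 2.82% of all genes did, so that 1 of 31 is near the background. In male Het, female Homo and female Het mice 0 passed, beside 0.172%, 0.071% and 0.136% of all genes. *Gipc1*, which encodes an adaptor that binds the tails of neuropilin-1 and plexin-D1, averaged 22.2 ± 3.89 FPKM (SD, n = 5) for WT males and 17.2 ± 1.36 FPKM (n = 5) for Homo males. The difference was −0.43 (SE 0.11, adjusted p = 0.0265 by limma), and the libraries overlapped, with 18.3 to 27.4 FPKM in WT and 15.4 to 18.6 FPKM in Homo. It no longer passed without Homo-M-0093 (adjusted p = 0.0879), Homo-M-0109 (0.0946), WT-M-0176 (0.0785) or WT-M-0258 (0.0641). Among late-numbered mice, which hold only 2 Homo males, the difference was −0.31 (adjusted p = 0.506). In females *Gipc1* was at 20.1 ± 1.95 FPKM (n = 4) in WT and 21.3 ± 0.924 FPKM (n = 5) in Homo.

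In males, early numbers were found in Cre-positive mice only, and the 5 early and 6 late Cre-positive males were compared with genotype as a term. *Sema6d* differed by −0.13 between early and late numbers (SE 0.20, 95% interval −0.56 to 0.30, adjusted p = 0.662 by limma). *Nrp1* was the only one of the 10 genes that passed. It was at 18.6, 20.5, 22.0, 22.9 and 26.7 FPKM in the early libraries and at 19.4, 30.4, 31.0, 31.0, 32.6 and 35.8 FPKM in the late ones. All early libraries lay below all late ones other than Het-M-0203 (19.4 FPKM). The difference was −0.61 (SE 0.18, adjusted p = 0.0481), and 14.6% of all genes passed in this comparison, so that 1 of 10 is near the background. The call was lost without any of 9 of the 11 libraries, with adjusted p between 0.0712 (without Het-M-0108) and 0.170 (without Het-M-0100). Without Het-M-0203, *Nrp1* (adjusted p = 0.00364), *Plxnb2* (0.0226) and *Sema4d* (0.0151) all passed.

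*Sema4d* and *Plxnb2*, the abundant ligand and receptor, differed by −0.39 (adjusted p = 0.0999) and −0.36 (adjusted p = 0.135) between early and late numbers by limma with all libraries. Relative to male WT mice, *Nrp1* was −0.36 in Homo (adjusted p = 0.255) and −0.38 in Het (adjusted p = 0.344). Among late-numbered mice alone, which hold only 2 Homo and 4 Het males, the values were 0.0050 and −0.17. A covariate for the number range gave −0.04 and −0.21. The libraries of *Nrp1* in male WT mice, all with late numbers, gave 24.0, 32.7, 34.1, 34.6 and 34.6 FPKM.

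**Figure D5:**
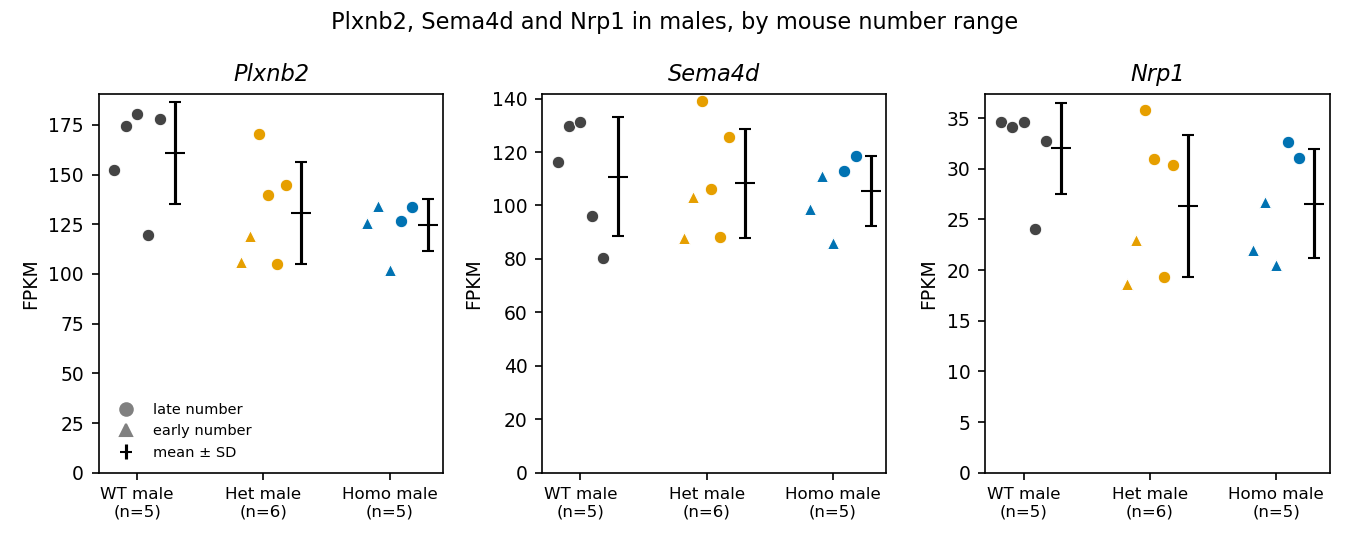
Levels (FPKM, y axes) of *Plxnb2*, *Sema4d* and *Nrp1* in the libraries of male WT, Het and Homo mice (x axes), with mean ± SD. Triangles are early-numbered and circles late-numbered mice, and early libraries of *Nrp1* lie at or below 26.7 FPKM.

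In the rest of the family, *Plxnb3* was higher in early-numbered males (0.52, SE 0.14, adjusted p = 0.0366 by limma). It was 1 of the 9 tested there. Of the 31 partners, 3 were higher and 6 lower, and of all genes 14.6% passed (1477 higher and 982 lower). The higher ones were *Micall1* (0.57), *Fes* (0.31), a kinase that acts with plexin-A1, and *Cdk5* (0.52). The lower ones were *Itgb1* (−0.71), *Rhoa* (−0.60), *Fyn* (−0.58), *Rac1* (−0.57), *Plxdc2* (−0.52) and *Dpysl2* (−0.48), which encodes a collapsin response mediator protein. The median of all genes was 0.10 in this comparison, 0.23 without scaling and −0.03 after quantile normalization.

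Genes whose log2 levels were most like that of *Sema6d* over the 30 libraries were *Gpr165* (Pearson r = 0.859), *Neo1* (0.763), which encodes the guidance receptor neogenin, *Anks1* (0.761), *Tacc1* (0.734) and *Ice1* (0.705). The least like were *Gm15964* (−0.862) and *Slamf8* (−0.831). These values describe libraries that share groups, and *Sema6d* differs between the groups. After the group means were taken out, *Abcb4* (0.846), *Gpr165* (0.797), *Ece1* (0.754), *Sipa1l1* (0.748) and *Sf1* (0.737) were most alike, and *Slamf8* (−0.779) and *Cryba4* (−0.736) least. *Gpr165* and *Slamf8* were thus named by both measures. Of the 18 other tested semaphorins, plexins and neuropilins, *Plxnb2* was the most like *Sema6d* (r = 0.447 over the 30 libraries) and held rank 1105 among 16896 genes. After the group means were taken out, *Plxnb2* had r = 0.315 (rank 2218), and *Sema4c* (0.502, rank 511), *Plxna1* (0.494) and *Sema4d* (0.487) were the most like it of these 18.

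Genes close to *Sema6d* on chromosome 2 were examined after its values were known. Of 18 genes of the table within 1 Mb, 6 were tested (*Gm13988*, *Slc24a5*, *Myef2*, *Dut*, *Cep152* and *Shc4*). Their differences between Cre-positive and WT mice ranged from −0.42 to 0.56, none passed the test by limma, and the lowest adjusted p was 0.389 (*Myef2*, 0.18, SE 0.10).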

How the data were processed

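The authors aligned reads to mm10 with OSA4, estimated abundance with RSEM on an Ensembl gene model, and deposited FPKM for 47643 genes, 47224 of them with a symbol. The DESeq2 fit of the study, which needs read counts, was not repeated, and depth is known only relative to the median library, from the steps between low values. The table also holds 6 columns that match no listed sample and were not used. The study dropped some libraries at its own quality control.

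Libraries were scaled by the median of ratios, taken from genes whose mean FPKM was 1 or more, and log2(scaled FPKM + 0.1) was compared by limma 3.58.1 in R 4.3.3 with an intensity trend, with all 6 groups in 1 model and for the 16897 genes whose mean FPKM was 0.1 or more. A gene passed at a Benjamini-Hochberg adjusted p below 0.05. The fit was tested on simulated data. Fold changes are on the log2(scaled FPKM + 0.1) scale, which understates those of low genes. Cre-positive males with early and late numbers were compared in a separate fit with a term for genotype. Groups and mouse numbers were taken from the sample labels. Nothing in the labels says how the mice were related, and replicates are separate mice by their numbers.

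The members and all lists were chosen with earlier results of these data known. Named were the 10 members, the family and partner genes that were tested and either passed or were among the 5 most abundant, *Bin1*, *Cx3cr1*, and the 5 most and 2 least like genes. Markers of cell types were named too, and *Sema3e* and *Sema7a* only as ligands, without values. Genes within 1 Mb of *Sema6d* were added later. The alternatives changed the pseudocount, the filter, the scaling and the weights of libraries, asked for a fold change above 1.5, or fitted the compared groups alone. Others added a covariate for the number range or kept late numbers alone, and the rest left out both Het libraries with low *Bin1*, or each library in turn. Coordinates are those of GENCODE M21 on GRCm38. Intervals give the uncertainty of a difference of group means, estimated from the spread between mice.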

Additional observations from a re-analysis of the deposited data

Results flagged for a closer look

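In 60 combinations of a gene and a group, 7 held a library far from the others of its group by Dixon's test, which chance gives in about 1 of 20 groups. WT-M-0258 was high for *Sema4b* (9.93 FPKM, the next library 6.25 FPKM), and WT-M-0202 was low for *Nrp1* (24.0 FPKM, the next 32.7 FPKM). *Plxnb2* was high in Het-F-0220 (171.2 FPKM, the next 149.2 FPKM) and low in Homo-M-0109 (102.2 FPKM, the next 125.7 FPKM). *Sema4a* was high in Het-M-0108 (5.53 FPKM, the next 3.44 FPKM), *Sema4b* in Homo-F-0201 (7.43 FPKM, the next 5.88 FPKM) and *Plxnd1* in Het-M-0210 (0.523 FPKM, the next 0.162 FPKM). *Sema6d* had no such library in any group.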

How the results depend on the processing

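No paired analysis was possible because the replicate numbers are mouse numbers, none of which is shared between groups. Between Cre-positive and WT mice, *Sema6d* stayed lower in every alternative run, from −0.86 (quantile normalization) to −0.65 (pseudocount 1), and from −0.92 to −0.73 when 1 library was left out. The count of the other 9 members that passed stayed at 0 in that contrast and in every other contrast with WT, except that leaving out 1 library gave 0 to 1 in male Homo (*Plxnb2*, without WT-M-0202). The count for mouse numbers was 1 and became 0 with a pseudocount of 0.01, every gene above 0, no scaling, quantile normalization or without both Het libraries with low *Bin1*, became 3 with array weights, and ranged from 0 to 3 when 1 library was left out. Small differences between Cre-positive and WT mice changed sign. *Sema4d* became 0.0136 without scaling, 0.0124 with the number range as a covariate and 0.0273 in late-numbered mice alone, where *Plxna1* became 0.0602 and *Plxnd1* −0.212. *Plxnc1* became −0.0410 after quantile normalization, −0.00362 with the covariate, −0.0652 in late-numbered mice and −4.31e-06 without both Het libraries. With 1 library left out, the ranges were −0.0791 to 0.0129 for *Sema4b*, −0.0880 to 0.010 for *Sema4d*, −0.0486 to 0.260 for *Plxnd1* and −0.0276 to 0.113 for *Plxnc1*. *Sema6d* changed sign in the interaction of sex and Homo (−0.0459 after quantile normalization, −0.110 to 0.258 with 1 library left out), between Homo and Het males (−0.0196 to 0.187) and between mouse numbers without scaling (0.0104). The cause was not tested. A fit of only the groups compared was not run for Cre-positive against WT mice, where it is the same fit, nor for mouse numbers, where a covariate for the range and late-numbered mice alone cannot give a value either. Absolute depth is unknown, which limits *Plxnc1* and *Plxnd1* most.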
